A study of Mus musculus with 12 samples.

Results

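Sorted islet endothelial cells were compared with whole islets of mice treated the same way, in 6 of the 12 RNA sequencing libraries of the series. Members were the 3 libraries of CD31+ endothelial cells and the 3 libraries of whole pancreatic islets, all from mice treated with doxycycline (Dox) for 1 week, and all 22711 gene symbols of the table of normalized expression values were considered. All mice carried RIP-rtTA; TetO-VEGF-A, in which the rat insulin promoter places the Dox-dependent activator rtTA in beta cells and Dox then switches on a VEGF-A transgene. The endothelial cells were sorted by flow cytometry with an antibody against CD31 from dispersed purified islets, whereas the isolated islets were lysed whole. Cell composition, dissociation and sorting therefore differ together between the groups and cannot be told apart. The other 6 libraries, sorted CD11b+ macrophages of Dox mice and whole islets of mice without Dox, were used only to give levels beside the comparison. The labels give no age or sex and leave unsaid if the replicates were separate or pooled mice, so the p-values below measure only the spread between libraries.

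Islets are clusters of endocrine cells fed by a dense bed of capillaries. The endothelial cells of these capillaries carry fenestrae, respond to VEGF-A made by beta cells, lay down the basement membrane on which beta cells rest, and sit beside pericytes, the contractile cells of small vessels. CD31 is the protein of Pecam1 and marks endothelial cells, but platelets and some leukocytes also carry it.

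Values are the authors' normalized signal, linear and with a floor of 1, and differences are log2 of (signal + 1) in endothelial cells minus Dox islets. Values in a sentence are given in the order of replicates 1, 2 and 3, endothelial cells before islets. A number alone in parentheses after a gene is its log2 difference, and levels in macrophages or in islets without Dox are means ± SD (n = 3). A gene was called when its limma p, adjusted over all 14218 genes tested, was under 0.05. The summed signal of a library lay between 22583723 and 24082087 in the endothelial group and between 19785649.9 and 25226447 in the islet group. The endothelial libraries correlated with each other at 0.981 to 0.991 (Spearman, across genes), whereas islet replicate 1 correlated with the other islet libraries at 0.930 and 0.936 and those with each other at 0.976. Islet replicate 1 stood apart with GC content: its deviations from the group mean correlated with the GC content of genes at 0.591 (Spearman, across genes), against -0.460 and -0.381 in islet replicates 2 and 3. Its library number (SL35210) also lay close to those of endothelial replicates 1 and 2 (SL35213 and SL35215). Endothelial replicate 3 (SL35905) began with SL35 too but lay farther off. The numbers of islet replicates 2 and 3 began with SL36. The sources used here do not say what these numbers stand for. Apart from islet replicate 1, the number series went with the group, so series and group cannot be fully told apart.

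Of the 14218 genes tested, 4706 were called, which is 33.1%. The 1635 called higher in endothelial cells were 11.5% of the genes tested and the 3071 called lower were 21.6%. Counts of list members called are to be read beside these shares. In many lists the part called lower was near or under 21.6%. Gene lists (40 in all) had 605 different members in the table, of which 577 passed the filter on low values and were tested. Sizes were unequal: 1712 genes were lower by more than 3 on the log2 scale and 37 were higher by more than 3. Median log2 differences were -7.98 for a list of beta cell genes, -6.18 for macrophage genes and -5.51 for fibroblast genes, and 1.30 for endothelial identity genes. After quantile normalization, which moved the median of all genes by 0.29, 58.4% of calls were higher rather than 34.7%, and 42 of the 4706 calls changed sign. Without islet replicate 1 the calls numbered 8167, of which 3663 were higher. Higher calls numbered 803, 766 and 917 without endothelial replicates 1, 2 and 3, and 956 without islet replicate 3.

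**Figure D1:**
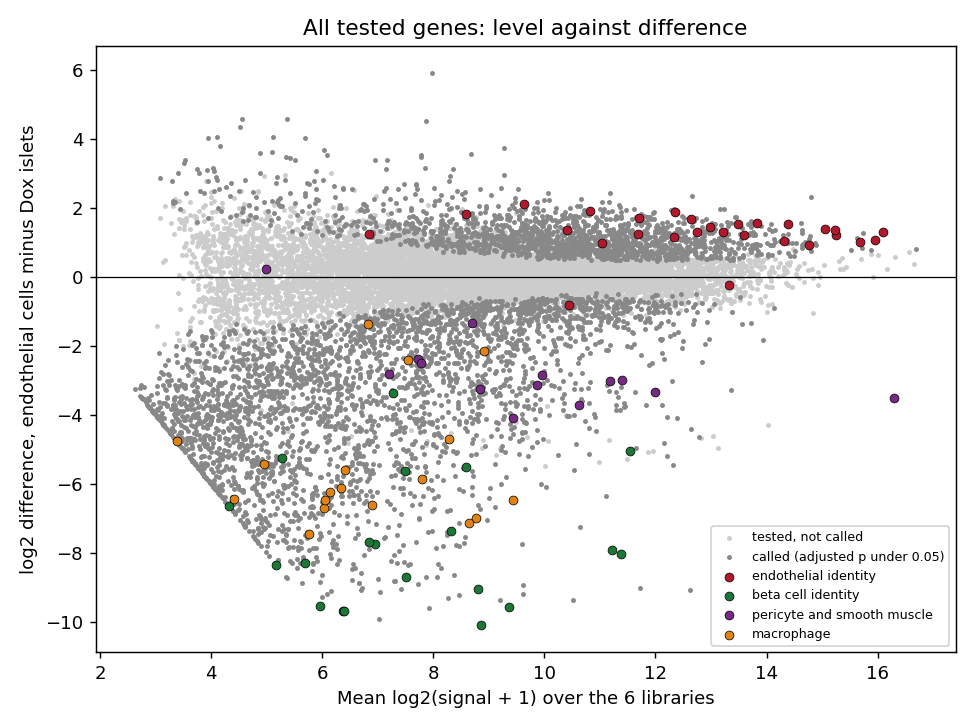
Each point is 1 of the 14218 genes tested, with the mean of log2(signal + 1) over the 6 libraries on the horizontal axis and the log2 difference (endothelial cells minus Dox islets) on the vertical axis. Dark grey points were called, and coloured points are members of 4 gene lists. Endothelial identity genes lie in a narrow band above 0, except Erg and Tspan7, beta cell and macrophage genes reach below -6, and pericyte genes lie between.

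The 4 defining endothelial markers were well above the floor in both groups and higher after sorting. Kdr, the main signalling receptor for VEGF-A, read 54788, 57911 and 52372 in the endothelial libraries and 20870.4, 24264 and 18706 in the islets. The groups did not overlap, and the log2 difference was 1.38, SE 0.19, adjusted p = 0.000712. Pecam1, which encodes the antigen of the sort and so checks the labels, read 57096, 64909 and 62196 against 20909, 29991 and 21909 (log2 difference 1.36, SE 0.21, adjusted p = 0.00138). Cdh5, the VE-cadherin of endothelial junctions, read 37759, 39139 and 33523 against 13918, 14805 and 9798 (log2 difference 1.54, SE 0.21, adjusted p = 0.000682). Emcn, the sialomucin endomucin of capillary and venous endothelium, read 59149, 64089 and 54396 against 21815, 30998 and 24405 (log2 difference 1.21, SE 0.21, adjusted p = 0.00237). All 4 markers were thus 2.30 (Emcn) to 2.87 (Cdh5) times higher. In sorted macrophages their means lay between 203 and 750. Islets without Dox had lower means of each, at 9139 ± 1486 (SD, n = 3) for Kdr and 7549 ± 1746 (SD, n = 3) for Pecam1.

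A list of 28 endothelial identity genes gave differences of similar size. Of these, 26 were called higher and 1 lower, with a median log2 difference of 1.30, against a median of 0.00 over all genes tested. The ratio of the 2 group means of signal was 1.86 to 3.52 in the 26, and in each of them the 2 groups did not overlap, as was the case for 48.3% of all genes tested. Together the 28 genes made up 3.24, 3.21 and 2.92% of the summed signal of the endothelial libraries and 1.40, 1.48 and 1.34% of that of the Dox islets. Macrophages held 0.0254 to 0.0334% and islets without Dox 0.557 to 0.628%. In bulk libraries, fewer cells of a type and less RNA per cell cannot be told apart.

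Ptprb, a phosphatase that restrains Tie2 and VE-cadherin signalling, read 108105, 118159.8 and 105475 against 34169, 51933 and 50306. Tie1, the orphan receptor paired with Tie2, read 10936, 9387 and 9763 against 4120.5, 2199 and 2219 (log2 difference 1.88, SE 0.26, adjusted p = 0.000645). Plvap, which forms the diaphragms of fenestrae, read 13619, 12224 and 8946 against 6454, 2676 and 2624 (log2 difference 1.68, SE 0.35, adjusted p = 0.00649). Here islet replicate 1 was more than 2 times the other islet libraries. Icam2, an adhesion protein of resting endothelium, showed this more strongly, with 2059.8, 1551 and 1397 in endothelial cells and 1245, 183 and 239 in islets, and a log2 difference of 2.12 (adjusted p = 0.0325). Vwf, stored in the granules of endothelial cells of larger vessels, read 741, 747 and 665 against 248, 249.7 and 136 (log2 difference 1.81). With no filter on low values 13 of the 28 were called higher, with all 12 libraries in 1 fit 20, and without single libraries 19 to 26. Icam2 (largest adjusted p = 0.139) was not called in separate fits without endothelial replicates 1, 2 and 3 and islet replicates 2 and 3.

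**Figure D2:**
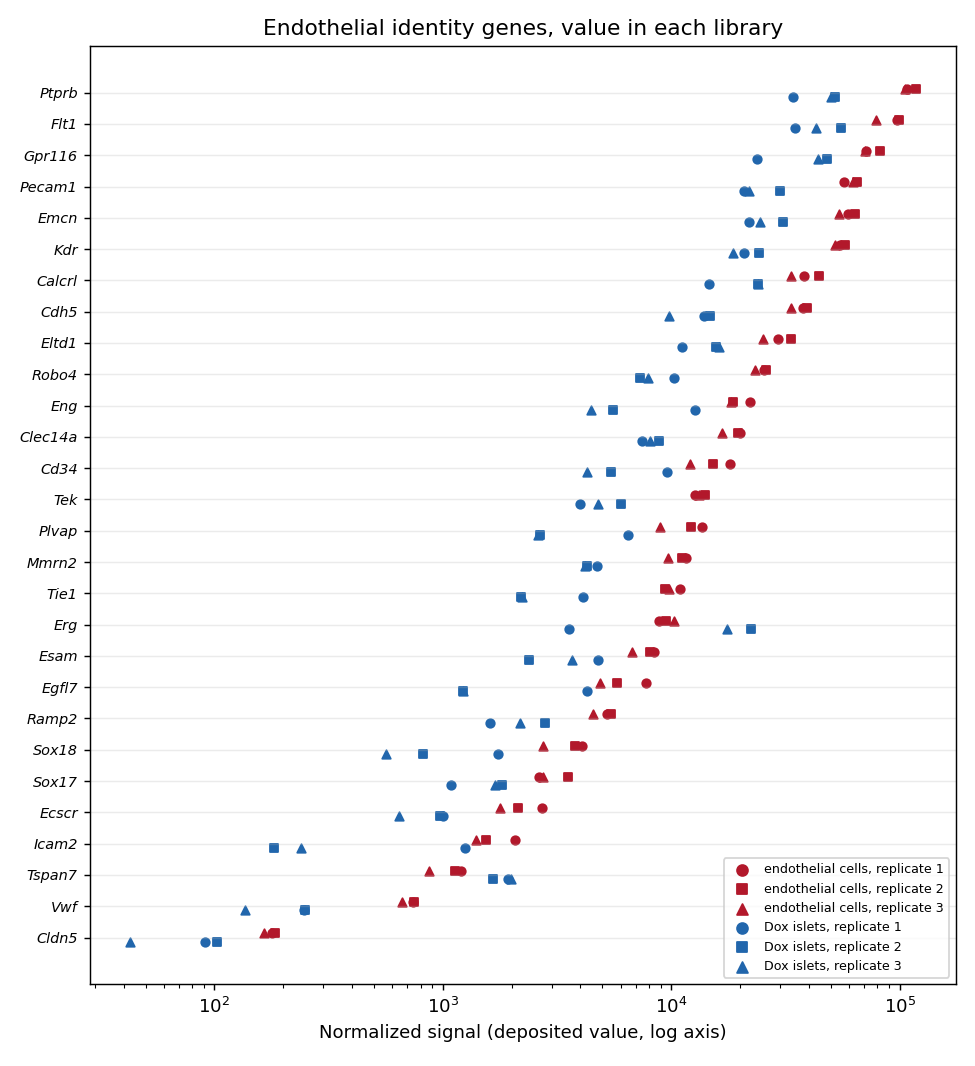
Normalized signal (log axis) of the 28 endothelial identity genes in each of the 6 libraries, sorted by their mean in endothelial cells. Red points are endothelial libraries and blue points Dox islet libraries, with 1 shape per replicate. Red points lie to the right of blue points for 26 genes, and for Erg and Tspan7 they do not.

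Erg and Tspan7 were the exceptions. Erg, an ETS factor that maintains endothelial identity, read 8803, 9516 and 10294 in endothelial cells and 3563, 22269 and 17525 in islets. Islet replicates 2 and 3 were above, and islet replicate 1 below, every endothelial library, so that the log2 difference was -0.23 (adjusted p = 0.789). Tspan7, a membrane tetraspanin also made by endocrine cells, was lower, at 1205, 1126 and 866 against 1938, 1651 and 1994 (log2 difference -0.81, SE 0.19, adjusted p = 0.0122). Tspan7 (largest adjusted p = 0.0579) was not called in separate fits without endothelial replicate 3 and islet replicate 3. It was also not called with the GC trend removed or with all 12 libraries in 1 fit. Erg (adjusted p = 0.00056) was called lower in endothelial cells without islet replicate 1.

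To show the upstream regions of genes that were higher together, the 250 bases before the annotated start are given for 4 genes. Kdr and Emcn are the 2 markers with an entry in the RefSeq promoter table (build GRCm38.p6). Tie1 and Robo4 are 2 identity genes with a single entry, given as examples that need not have the largest differences. Capitals mark matches to CNGGAAG or its reverse complement, a core of the sites that ETS factors such as Erg and Fli1 bind. Each run is written 5′ to 3′ on the strand of the gene.
Kdr (chr5:75978456-75978705, minus strand): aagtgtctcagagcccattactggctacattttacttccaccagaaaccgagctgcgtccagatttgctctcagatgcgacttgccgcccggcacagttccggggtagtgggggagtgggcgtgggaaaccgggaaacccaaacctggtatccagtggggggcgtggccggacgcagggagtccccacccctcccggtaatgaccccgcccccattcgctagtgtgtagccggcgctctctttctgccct
Emcn (chr3:137340828-137341077, plus strand): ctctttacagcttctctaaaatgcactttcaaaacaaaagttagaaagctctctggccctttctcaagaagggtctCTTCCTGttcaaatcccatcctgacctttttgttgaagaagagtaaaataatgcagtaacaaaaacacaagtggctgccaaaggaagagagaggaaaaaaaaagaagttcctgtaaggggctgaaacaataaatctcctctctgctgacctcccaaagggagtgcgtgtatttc
Tie1 (chr4:118489850-118490099, minus strand): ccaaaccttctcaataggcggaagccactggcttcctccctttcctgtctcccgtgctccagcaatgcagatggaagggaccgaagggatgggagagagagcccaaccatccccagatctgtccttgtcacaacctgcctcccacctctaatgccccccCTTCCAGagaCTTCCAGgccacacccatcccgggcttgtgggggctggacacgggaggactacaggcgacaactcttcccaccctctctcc
Robo4 (chr9:37401722-37401971, plus strand): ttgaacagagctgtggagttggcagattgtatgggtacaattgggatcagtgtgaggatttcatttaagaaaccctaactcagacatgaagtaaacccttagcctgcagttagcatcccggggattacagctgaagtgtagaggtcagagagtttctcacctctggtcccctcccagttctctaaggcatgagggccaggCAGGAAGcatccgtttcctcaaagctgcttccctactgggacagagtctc
Kdr held no match in this window, Emcn and Robo4 held 1 each and Tie1 held 2. Over the 16 of 28 identity genes found in the table, 12 held a match in at least 1 entry, against 36.9% of tested genes. Counted by entry, 13 of 21 did (61.9%), against 26.6% of all 32851 windows of this length. A match is a description of the letters, not a bound site.

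Endothelial transcription factors went both ways. Of 31 tested, 14 were called higher and 5 lower, against 11.5% and 21.6% of all genes tested. Sox18, a SOXF factor of vessel and lymphatic development, read 4067, 3795 and 2734 against 1739, 815 and 566 (log2 difference 1.90, SE 0.38, adjusted p = 0.00516). Bcl6b, a repressor found in endothelium, read 8879.5, 10366 and 10859 against 4478, 3527 and 2502 (log2 difference 1.55, SE 0.23, adjusted p = 0.000997). Gata2 (1.49) and Tal1 (1.48), which act together in blood and vessel lineages, also passed. Fli1, an ETS factor shared with macrophages, read 3925, 4335 and 4908 in endothelial cells, 1569, 1692 and 1461 in islets and a mean of 4434 ± 562 in macrophages, and was called (log2 difference 1.48). Epas1, which encodes the hypoxia-inducible factor HIF-2α, read 43364, 42198 and 47786 in endothelial cells and 28421, 44306 and 44079 in islets, which overlapped, and was not called (log2 difference 0.22, adjusted p = 0.507). Mef2c (0.29) and Hey2 (0.49), a target of Notch, were not called either. Hey2 (adjusted p = 0.0488) was called without islet replicate 1.

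The 5 factors called lower were Meox2, Foxc1, Prox1, Foxc2 and Nr2f2. Prox1, the lymphatic determinant, which islet endocrine cells also make, read 688, 842 and 859 against 2097, 2918 and 3780.0 (log2 difference -1.84, SE 0.24, adjusted p = 0.000497), with a mean of 5563 ± 1188 in islets without Dox. Meox2 read 98.8, 113 and 258 against 823, 812 and 808, with endothelial replicate 3 more than 2 times the other endothelial libraries. Nr2f2, which specifies veins, read 1095, 1205 and 1160.2 against 3026, 3668 and 3173. Single libraries left out gave 13 to 19 factors called higher and 5 or 6 lower.

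In the VEGF family the receptors were higher, 3 of the 5 ligands were lower and Vegfc was higher. All 5 receptors and coreceptors tested passed: besides Kdr these were Flt1 (1.07), the decoy receptor VEGFR1, Flt4 (1.27), the VEGF-C receptor VEGFR3, and the neuropilins Nrp1 (0.78) and Nrp2 (1.09). Flt1 read 97215, 99726 and 79015 against 34727, 55235 and 43138. Vegfa was lower by the largest margin, with 41.9, 68.8 and 68.7 in endothelial cells and 1579.6, 2085 and 2417 in Dox islets (log2 difference -5.07, SE 0.30, adjusted p = 1.04e-05). Its mean was 3967 ± 637 in islets without Dox, and the sources used here do not say if transgene reads count towards Vegfa. Pgf (placental growth factor) read 4.10, 4.52 and 18.8 against 239, 98.9 and 87.7 and Vegfb read 69.9, 50.4 and 62.5 against 165, 146 and 135, both called lower. Vegfc, the ligand of Flt4, was higher at 766, 956 and 909 against 366, 555 and 451 (log2 difference 0.95, SE 0.23, adjusted p = 0.0127). Figf (VEGF-D) was not called (-0.78, adjusted p = 0.143). Flt1 (largest adjusted p = 0.0557) was not called in separate fits without endothelial replicates 1 and 2. Nrp1 (largest adjusted p = 0.116) was not called in separate fits without endothelial replicates 1, 2 and 3 and islet replicate 3. Vegfb (adjusted p = 0.0889) was not called without endothelial replicate 2. Vegfc (largest adjusted p = 0.0712) was not called in separate fits without endothelial replicates 2 and 3. Figf (adjusted p = 0.00782) was called without islet replicate 1.

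Of 7 angiopoietin and Tie genes, 3 were called higher and 3 lower, against 11.5% and 21.6% of all genes tested. Tek, the receptor Tie2, read 12741, 14061 and 13249 against 3987, 6029 and 4762 (log2 difference 1.46, SE 0.19, adjusted p = 0.00052). Angpt1, the agonist that mural cells make, was lower at 20.9, 33.8 and 56.9 against 239, 551 and 704 (log2 difference -3.68, SE 0.52, adjusted p = 0.000757). Angpt2, the ligand that endothelial cells themselves release, read 2303, 2107 and 2272 in endothelial cells and 1766, 2489 and 2413 in islets, and these overlapped (log2 difference 0.02, adjusted p = 0.948). Angptl2 (-3.41) and Angptl4 (-2.0), secreted relatives that do not bind Tie2, were lower. Of the 10 VEGF genes tested, 6 were called higher and 3 lower, and without endothelial replicate 2 these were 3 and 2.

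**Figure D3:**
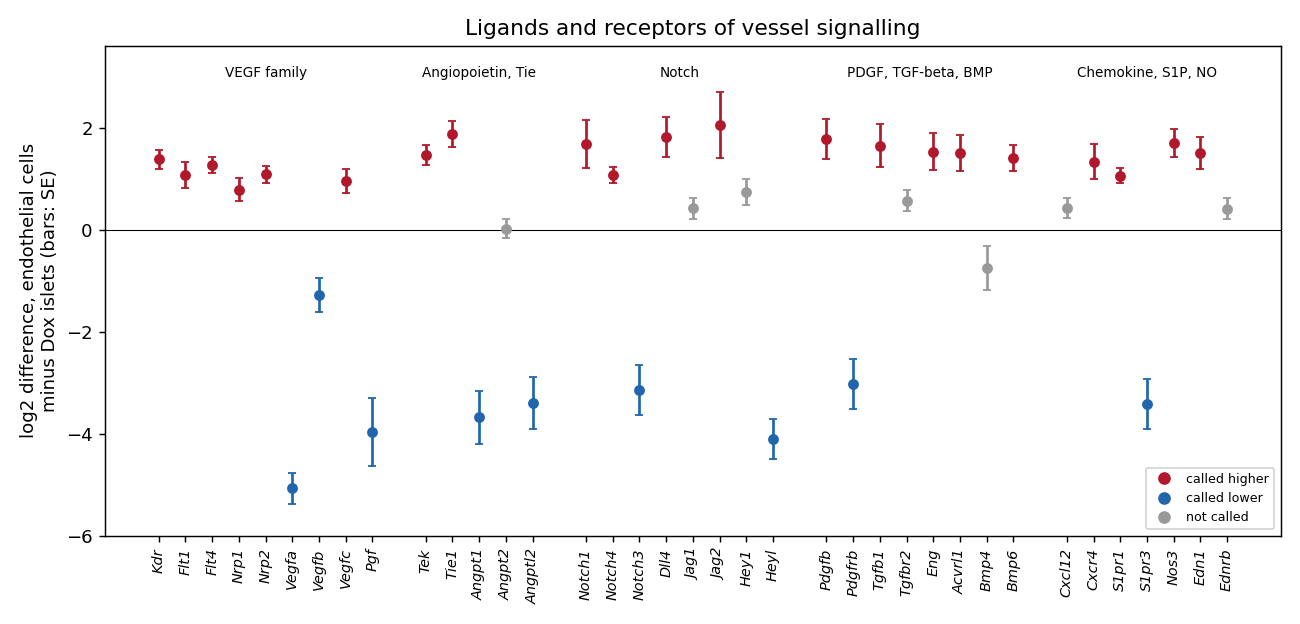
log2 difference (endothelial cells minus Dox islets) with its standard error from limma for ligands, receptors and targets of 5 groups of vessel signalling genes. Red points were called higher, blue points called lower and grey points not called. Receptors of the VEGF and Tie families lie above 0, while Vegfa, Pgf, Angpt1, Notch3, Heyl and Pdgfrb lie below -2.

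Of 16 Notch genes, 5 were called higher and 3 lower, against 11.5% and 21.6% of all genes tested. Dll4, the ligand of tip and arterial cells, read 6468, 5763 and 7118 against 3666, 1084 and 1530.1 (log2 difference 1.82, SE 0.39, adjusted p = 0.00767). The receptors Notch1, at 5611, 5370.5 and 5519.8 against 4169, 1147 and 1048, and Notch4, at 5423, 5664 and 4619 against 2660.2, 2273 and 2549, were both called higher. Notch3, the receptor of pericytes and smooth muscle, was lower at 238, 212 and 618 against 5090.4, 1818 and 2355 (log2 difference -3.15, SE 0.49, adjusted p = 0.00126), as was Heyl, its target (-4.11). Endothelial replicate 3 held more than 2 times the Notch3 of the other endothelial libraries. Notch2 was also lower (-1.91), and had a mean of 11782 ± 1657 in macrophages. Jag1, another ligand, was not called (0.41). Notch genes called higher numbered 3 without endothelial replicates 1, 2 and 3 and islet replicate 3 (each) and 9 without islet replicate 1. With no filter on low values 2 Notch genes were called higher. Notch1 (largest adjusted p = 0.107) was not called in separate fits without endothelial replicates 1, 2 and 3 and islet replicates 2 and 3. Jag1 (adjusted p = 0.00744) was called without islet replicate 1.

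Genes of sprouting tip cells included 8 of 17 called higher and 1 called lower, against 11.5% and 21.6% of all genes tested. Those higher included Aplnr, the apelin receptor, at 16656, 16859 and 13789 against 8544, 6044 and 3303. Pdgfb, which recruits pericytes, was also higher at 6695, 6051 and 5583 against 3601, 1528 and 1027 (log2 difference 1.77, SE 0.40, adjusted p = 0.00926). Cxcr4 (1.33), the receptor of CXCL12, was also called. Esm1, a secreted product of VEGF-stimulated tip cells, read 53593, 48241 and 50480.3 in endothelial cells and 22918, 46179 and 38811 in islets and was not called (log2 difference 0.56, adjusted p = 0.161). Apln, the ligand of Aplnr, was not called either, at 2895, 2815 and 3663 in endothelial cells and 1328, 4498 and 2476 in islets. For both, islet replicate 1 was the lowest islet library. Tip cell genes called higher numbered 4 without endothelial replicate 1, 5 without islet replicate 3 and 1 with no filter on low values. Cxcr4 (largest adjusted p = 0.0786) was not called in separate fits without endothelial replicate 1 and islet replicates 2 and 3.

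Of 19 arterial, venous and lymphatic genes, 5 were called higher and 5 lower, against 11.5% and 21.6% of all genes tested. Ephb4, a venous receptor, read 4452, 3431 and 3379 against 2179, 949 and 1091 (log2 difference 1.5, SE 0.31, adjusted p = 0.00576), and its arterial ligand Efnb2 read 17992, 17038 and 19210.0 against 7952, 12805 and 10883 (log2 difference 0.80, SE 0.21, adjusted p = 0.0187). The lymphatic genes Lyve1 (-2.14) and Pdpn (-3.75) were lower along with Prox1, and Lyve1 read 117, 109.7 and 169 against 369.5, 639 and 806. Efnb2 (largest adjusted p = 0.0836) was not called in separate fits without endothelial replicates 1, 2 and 3 and islet replicate 3.

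Of 19 genes of junctions, caveolae and fenestrae, 12 were called higher and 1 lower, against 11.5% and 21.6% of all genes tested. Those higher included the protocadherins Pcdh1 (1.47) and Pcdh12 (1.30) and the tight junction protein Tjp1 (0.70). Ocln (occludin), a tight junction protein of epithelia and of tight endothelial barriers, was near the floor in endothelial cells, at 4.41, 2.89 and 4.69 against 183, 442 and 404 (log2 difference -6.02, SE 0.48, adjusted p = 3.92e-05). Cldn5, the claudin of endothelium, read 178, 184 and 166 against 91.0, 102 and 42.6. Cav1, the coat protein of caveolae, read 22939, 26801 and 23838 in endothelial cells and 13536, 26666 and 19486 in islets, which overlapped, and was not called (0.35). Junction genes called higher numbered 7 without endothelial replicates 1 and 2 (each) and 6 with no filter on low values. Tjp1 (largest adjusted p = 0.161) and Cldn5 (largest adjusted p = 0.14) were not called in separate fits without endothelial replicates 1, 2 and 3 and islet replicate 3.

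Genes for lipid handling and transport went both ways. Slco2a1, a prostaglandin carrier, read 28906, 23889 and 19779 against 8941, 7722 and 6640.2 (log2 difference 1.63, SE 0.21, adjusted p = 0.000434). Abcb1a (1.38), a drug efflux pump, Aqp1 (1.72), a water channel, and Slc2a1 (0.99), the glucose carrier GLUT1, were higher. Lpl, the lipase that acts on the capillary surface but is made by other cells, was lower at 141, 188 and 313 against 5170.1, 9751 and 7634 (log2 difference -5.16, SE 0.34, adjusted p = 1.53e-05), whereas Gpihbp1, which holds it on the capillary wall, was higher at 1197, 992 and 719 against 520.0, 344 and 294. Cd36, the fatty acid transporter, was lower at 2242, 2347 and 1868 against 3750.3, 4489 and 4059 (log2 difference -0.93), with a mean of 9521 ± 726 in macrophages. In total 9 of 16 were called higher and 4 lower, against 11.5% and 21.6% of all genes tested. The transferrin receptor Tfrc (-1.89) was among the lower ones.

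Of 15 vasoactive genes, 5 were called higher and 5 lower, against 11.5% and 21.6% of all genes tested. Nos3, the endothelial nitric oxide synthase, read 1472, 1393 and 1158 against 612, 331 and 348 (log2 difference 1.69, SE 0.27, adjusted p = 0.00161), and Ace, the angiotensin-converting enzyme, read 12674, 12274 and 11655 against 5383, 3262 and 3026 (log2 difference 1.70, SE 0.23, adjusted p = 0.000664). Edn1, which encodes endothelin 1, was also higher (1.51). The subunits of the nitric oxide receptor, Gucy1a3 and Gucy1b3, were lower: Gucy1a3 read 657, 684 and 2254 against 9729, 16108 and 14466 (log2 difference -3.71, SE 0.45, adjusted p = 0.000365). The sphingosine 1-phosphate receptors went opposite ways, S1pr1 higher at 12782, 12064 and 11921 against 6157, 6138 and 5386 and S1pr3 lower at 219, 148 and 671 against 2747, 3200.3 and 3062. Agtr1a, the angiotensin receptor, was lower as well (-3.51). Endothelial replicate 3 was the highest endothelial library for Gucy1a3, S1pr3 and Agtr1a.

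Of 14 genes of coagulation and fibrinolysis, 5 were called higher and 2 lower, against 11.5% and 21.6% of all genes tested. Procr, the endothelial protein C receptor, read 1125, 1167 and 902 against 465, 742 and 393, and F2rl3, the thrombin receptor PAR4, read 12341, 13376 and 14047 against 6394, 9406 and 5687. F3, tissue factor, which endothelium normally lacks, was lower at 29.8, 32.4 and 27.8 against 168, 383 and 326 (log2 difference -3.16, SE 0.40, adjusted p = 0.000444). Of 13 leukocyte adhesion genes, 6 were higher and 1 lower. Madcam1, the addressin of gut vessels, had the largest positive difference of all list members, at 451, 471 and 293 against 111, 51.8 and 51.2 (log2 difference 2.55, SE 0.40, adjusted p = 0.00135), and its mean was 8.2 ± 7.97 in islets without Dox. Vcam1 was lower at 183, 289 and 201 against 1169.7, 3174 and 2109.5 (log2 difference -3.17, SE 0.37, adjusted p = 0.000279), with a mean of 17101 ± 1855 in macrophages. Coagulation genes called higher numbered 2 without endothelial replicates 1, 2 and 3 (each) and 1 without islet replicate 3. Coagulation genes called lower numbered 1 without endothelial replicates 1 and 3 (each). Adhesion genes called higher numbered 3 without endothelial replicate 1 and islet replicate 3 (each). Procr (largest adjusted p = 0.0785) was not called in separate fits without endothelial replicates 1 and 2 and islet replicate 3. F2rl3 (largest adjusted p = 0.0535) was not called in separate fits without endothelial replicate 3 and islet replicate 3.

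In TGF-β and BMP signalling, 7 of 22 genes were called higher and 3 lower, against 11.5% and 21.6% of all genes tested. Eng, the coreceptor endoglin, read 22181, 18663 and 18202 against 12763, 5532 and 4455 (log2 difference 1.53, SE 0.36, adjusted p = 0.0114), and its partner Acvrl1 (ALK1) was higher too (1.5). Smad6, an inhibitory SMAD, read 2005, 1554 and 1554 against 764, 267 and 500.1 (log2 difference 1.85, SE 0.36, adjusted p = 0.00419). Among ligands, Tgfb1 was higher (1.64) and Tgfb3 lower (-2.83). The receptor Tgfbr1 was lower (-0.91), with a mean of 24375 ± 2377 in macrophages. Bmpr2, the type II BMP receptor, was not called, at 59654, 67857 and 64429 in endothelial cells and 27166, 55102 and 57669 in islets (0.53). TGF-β and BMP genes called higher numbered 2 without islet replicate 3. TGF-β and BMP genes called lower numbered 5 without islet replicate 1. Tgfb1 (largest adjusted p = 0.0719) was not called in separate fits without endothelial replicate 1 and islet replicates 2 and 3. Eng (largest adjusted p = 0.0534) was not called in separate fits without islet replicates 2 and 3. Acvrl1 (adjusted p = 0.0584) was not called without islet replicate 3.

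Axon guidance genes, many of which vessels reuse, had 12 of 21 called higher and 4 lower, against 11.5% and 21.6% of all genes tested. Sema6a, a semaphorin, read 11901, 13214 and 13709 against 3905, 4142 and 4571 (log2 difference 1.62, SE 0.16, adjusted p = 0.00011), and Epha4, an ephrin receptor, read 4582, 5072 and 5009.6 against 1752, 1177 and 1464 (log2 difference 1.76, SE 0.19, adjusted p = 0.000178). Plxnd1, the endothelial semaphorin receptor, was higher at 22706, 21631 and 17501 against 12759.8, 4765 and 3749. Slit2, a secreted guidance cue, was lower at 9.08, 6.77 and 53.8 against 547, 919 and 950.2 (log2 difference -5.59, SE 0.70, adjusted p = 0.000416), as was its receptor Robo1 (-1.92), while Robo4, the endothelial member of that family, was higher (1.56). Guidance genes called lower numbered 2 without endothelial replicates 1 and 2 (each). With no filter on low values 6 guidance genes were called higher and 3 lower. Plxnd1 (largest adjusted p = 0.0541) was not called in separate fits without islet replicates 2 and 3.

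Of 16 basement membrane genes, 7 were called higher and 2 lower, against 11.5% and 21.6% of all genes tested. Hspg2 (perlecan) read 66895, 57759 and 64919.8 against 32731, 9265 and 6909 (log2 difference 2.30, SE 0.51, adjusted p = 0.00829), and the laminin chains Lama5 (1.96), Lama4 (1.36) and Lamb1 (1.20) were higher. Lama4 read 41664, 42961 and 39012 against 20904, 16841 and 11614. Col4a1, the major collagen IV chain, was not called, at 95526, 98554 and 103054 in endothelial cells and 58995, 84038 and 58674 in islets (0.58, adjusted p = 0.0928), and neither were Sparc (0.38) and Nid1 (-0.01). Nid1 read 56973, 63366 and 64414 in endothelial cells and 36912, 91331 and 71048 in islets, with islet replicate 1 below and the other islet libraries above every endothelial library. Fn1 (fibronectin) was lower at 458, 472 and 596 against 7351, 7497 and 4648 (log2 difference -3.65, SE 0.23, adjusted p = 1.4e-05), and Col4a5 was lower (-4.19). The 16 genes made up 2.51 to 2.78% of the endothelial libraries and 1.35 to 1.98% of the islet libraries. Basement membrane genes called higher numbered 11 without islet replicate 1 and 3 with no filter on low values. Col4a1 (smallest adjusted p = 0.0294) was called in separate fits without islet replicates 1 and 2.

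Of 19 growth factors and their binding proteins, 5 were called higher and 8 lower, against 11.5% and 21.6% of all genes tested. Thbs1 (thrombospondin 1), an inhibitor of angiogenesis, read 39699, 42563 and 43156 against 23340.1, 21549 and 19372 (log2 difference 0.97, SE 0.18, adjusted p = 0.0035). Hgf, hepatocyte growth factor, was lower, at 8.61, 16.3 and 36.0 against 240.1, 425 and 583 (log2 difference -4.42, SE 0.57, adjusted p = 0.000458), and had a mean of 1669 ± 92.0 in macrophages. Wnt5a (-3.78), Igf2 (-2.98) and Igfbp5 (-3.19) were lower as well. Igf1 was not called, at 7557, 9779.7 and 10165 in endothelial cells and 5979.8, 13403 and 12041 in islets (-0.12). Growth factor genes called higher numbered 2 without endothelial replicate 1 and 3 without endothelial replicate 2 and islet replicates 2 and 3 (each). With no filter on low values 1 growth factor gene was called higher. Igf1 (adjusted p = 0.0296) was called lower in endothelial cells without islet replicate 1.

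Hormone transcripts were far lower in the sorted cells. Ins2 read 182, 161 and 149 against 40358, 47754 and 41804 (log2 difference -8.04, SE 0.16, adjusted p = 2.07e-07), and Gcg (glucagon) read 282, 92.4 and 767 against 114499, 182793 and 152816 (log2 difference -9.08, SE 0.64, adjusted p = 2.38e-05). Iapp, the amyloid peptide released with insulin, read 139, 130.1 and 178 against 55317, 94249 and 86252. The 8 hormone genes together made up 0.00475, 0.00316 and 0.0064% of the endothelial libraries and 1.37, 1.49 and 1.36% of the islet libraries. Sorted macrophages held 0.0247 to 0.0742%, above the endothelial range. Of the 8, 7 were called lower, and Ghrl (ghrelin) was not, at 157, 158 and 192 in endothelial cells and 156, 183 and 205 in islets.

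All 20 beta cell identity genes were called lower, with a median log2 difference of -7.98. The GLP-1 receptor Glp1r had the largest, at 6.15, 24.1 and 14.7 against 10109, 19701 and 17852 (log2 difference -10.08, SE 0.46, adjusted p = 6.34e-06). Next came Neurod1, a factor of endocrine development, with 2.05, 3.01 and 1.00 against 1392, 2987 and 3323, Ucn3, a peptide of mature beta cells, with 4.10, 1.51 and 1.00 against 2083, 2815 and 2415, and the zinc transporter Slc30a8, with 14.3, 19.6 and 42.2 against 11323, 21798 and 24567. In Neurod1, Ucn3 and Nkx6-1 the endothelial values lay between the floor of 1 and 4.10, where the added 1 sets the size of the difference. Of 18 islet transcription factors, 16 were called lower. Hhex was not called (0.42), at 1373, 1445 and 1673 in endothelial cells against 588, 1994 and 1190.3, and had a mean of 1557 ± 456 in macrophages.

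Granule genes were lower in 12 of 14, among them Scg2 (-9.37), Chgb (-9.19) and the convertase Pcsk2 (-9.36). Ica1, an autoantigen of islet cells, was the 1 called higher, at 4241, 4303 and 3954 against 2874, 1296 and 2117 (log2 difference 1.06, SE 0.27, adjusted p = 0.0174). Of 16 exocytosis genes 13 were lower, led by Snap25 at 16.5, 12 and 12.5 against 4127, 10805 and 14574 (log2 difference -9.22, SE 0.45, adjusted p = 6.34e-06). Of 16 genes of the unfolded protein response, which secretory cells use heavily, 7 were called lower, for example Sdf2l1 (-1.61), Dnajb9 (-1.32) and Herpud1 (-1.30). Hspa5 (BiP), the main chaperone of the endoplasmic reticulum, read 11014, 11457 and 10649 in endothelial cells and 13793, 21476 and 14235 in islets and was not called (-0.55). Unfolded protein response genes called lower numbered 4 without endothelial replicates 1 and 2 (each), 3 without endothelial replicate 3 and 12 without islet replicate 1. Ica1 (largest adjusted p = 0.0614) was not called in separate fits without endothelial replicates 1 and 2 and islet replicate 3. It was also not called with no filter on low values or with all 12 libraries in 1 fit. Hspa5 (adjusted p = 0.0134) was called without islet replicate 1.

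Lists for the other cells of the islet were counted in the same way. All 18 macrophage genes were called lower, and their summed share was 0.00216, 0.00268 and 0.00512% in endothelial cells against 0.165, 0.118 and 0.0907% in islets and 2.32 to 2.50% in sorted macrophages. Itgam, which encodes CD11b, read 2.05, 7.53 and 12.4 against 438, 721 and 775, and Lyz2 read 31.8, 57.9 and 201 against 10678, 6422 and 4022. Ctss, a lysosomal protease, had a log2 difference of -7.00, SE 0.59, adjusted p = 5.17e-05. Of 8 leukocyte genes tested, 6 were lower, among them Ptprc (CD45) at 33.3, 22.6 and 48.3 against 1655, 1927 and 1165 (log2 difference -5.50, SE 0.36, adjusted p = 1.53e-05). With no filter on low values 4 of 14 leukocyte genes were called lower, and after quantile normalization 3 of 8. Il2rg, the shared cytokine receptor chain, was called higher at 1794, 1645 and 1495 against 621, 582 and 344 (log2 difference 1.71, SE 0.26, adjusted p = 0.00105). Its mean in macrophages was 1565 ± 186.

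Mural and stromal genes were lower as well. Of 14 pericyte and smooth muscle genes 13 were called lower, with a median log2 difference of -3.0. Rgs5, a pericyte regulator of G protein signalling, read 15000.1, 15427 and 57986 against 170137, 400951 and 299475 (log2 difference -3.52, SE 0.55, adjusted p = 0.00132). Endothelial replicate 3 held more than 3 times the Rgs5 of the other endothelial libraries, and the list's share was 0.298% there against 0.0837 and 0.0781% in replicates 1 and 2, and 1.12 to 1.78% in islets. Acta2 (smooth muscle actin) read 390.3, 209 and 1001 against 8333, 5140.3 and 4385, and Pdgfrb, the receptor for PDGF-B, read 676, 502 and 1572 against 12325, 4784 and 4909. With endothelial replicate 3 left out, 13 of the 14 were also called lower. Cnn1 was the 1 not called, at 42.5, 33.5 and 25.8 against 41.0, 22.7 and 23.9. All 13 fibroblast genes were lower, with a median of -5.51: Dcn read 32.6, 30.0 and 87.3 against 3154, 5609.6 and 4836 and Col1a1 read 131, 74.9 and 196 against 6648, 11252 and 8525.

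Acinar transcripts, from the exocrine pancreas, varied between libraries of the same group. Cpb1, a digestive carboxypeptidase, read 1521, 39497 and 65.7 in endothelial cells and 32577, 37882 and 99985 in islets. Endothelial replicate 2 thus lay within the islet range, while replicates 1 and 3 lay far below it. The 18 genes tested had a median log2 difference of -4.73, yet 4 were called. Without endothelial replicate 2 all 18 were called lower, without islet replicate 1 the calls numbered 6, and 1 was called without each of the other 4 libraries. The list made up 0.03, 0.65 and 0.00196% of the endothelial libraries and 0.919, 0.543 and 1.79% of the islet libraries. Sorted macrophages held 0.151, 2.29 and 0.00711%, so replicate 2 was the highest and replicate 3 the lowest there too. All 14 ductal genes were called lower (median -4.57), for example Cdh1, the E-cadherin of epithelia, at 14.3, 27.1 and 31.2 against 2239, 2895 and 2809, and 7 of 8 Schwann cell genes were. Cpb1 (adjusted p = 0.00204) was called without endothelial replicate 2.

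Platelet genes went both ways, with 2 of 7 higher and 3 lower: Clec1b, a platelet receptor also reported outside platelets, read 771, 921 and 934 against 328, 144 and 291 (log2 difference 1.86, SE 0.33, adjusted p = 0.00268), whereas Pf4 read 2.05, 1.51 and 6.25 against 158, 77.7 and 70.3. Of the other platelet genes, Gp9 was called higher (1.80) and Ppbp lower (-2.84). Of 5 red blood cell genes 4 were lower, among them Hbb-b1 at 91.3, 44.4 and 67.6 against 1479, 501 and 229. With no filter on low values 1 of 7 red blood cell genes was called lower. After quantile normalization 1 of the 5 was called lower and 1 higher. The part of these other cells in the results above was not tested. Gene copies that are nearly alike, such as Hbb-b1 and Hbb-b2, Ins1 and Ins2 or Hspa1a and Hspa1b, can share reads, and their separate values are uncertain. Platelet genes called higher numbered 1 without endothelial replicates 1, 2 and 3 and islet replicates 2 and 3 (each). Gp9 (largest adjusted p = 0.127) was not called in separate fits without endothelial replicates 1, 2 and 3 and islet replicates 2 and 3.

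**Figure D4:**
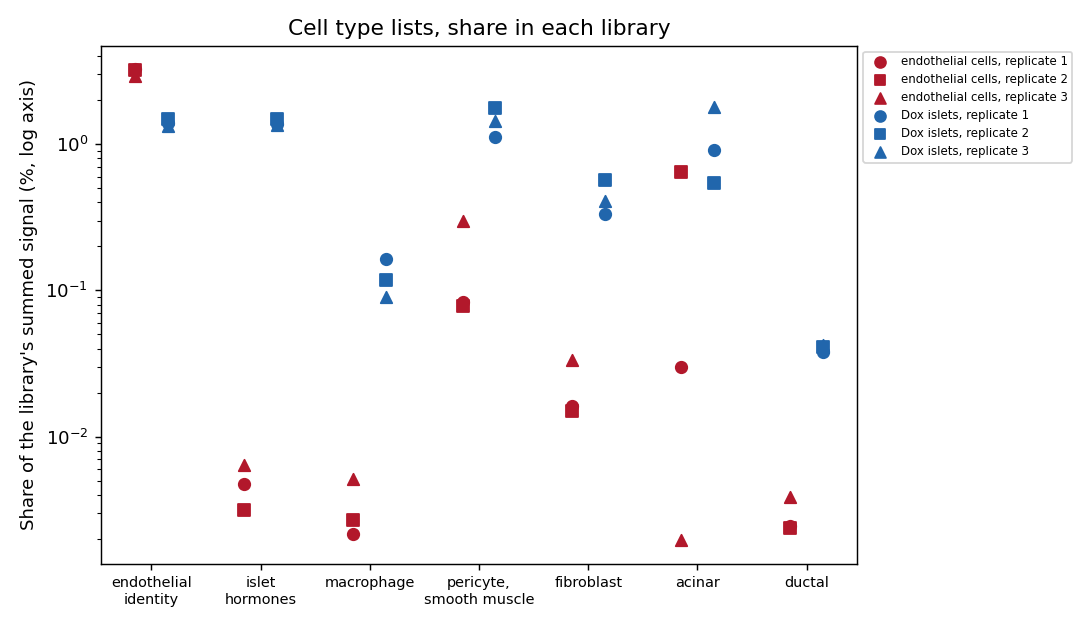
Share of the summed signal of each library (percent, log axis) held by 7 cell type lists, with red points for endothelial and blue points for Dox islet libraries and 1 shape per replicate. Endothelial replicate 2 lies in the islet range for acinar genes (0.65%), and endothelial replicate 3 is the highest endothelial library for pericyte and smooth muscle genes (0.298%).

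Genes that respond to handling of cells were followed as well, since of the 2 groups only the endothelial cells were dispersed and sorted. Of 22 immediate early genes 8 were called higher and 2 lower, against 11.5% and 21.6% of all genes tested. Nr4a1, a nuclear receptor induced within minutes of stimulation, read 5700.4, 5336 and 3747 against 2942, 668 and 654 (log2 difference 2.16, SE 0.53, adjusted p = 0.0145), and Atf3, a stress-induced factor, read 3298, 4196 and 4178 against 2171, 948 and 709 (log2 difference 1.77, SE 0.37, adjusted p = 0.00672). Fos and Egr1 were not called: Fos read 11515, 11366 and 10111 in endothelial cells and 9241, 9711 and 5993 in islets, and Egr1 read 18021, 22492 and 22912 in endothelial cells and 14510.5, 21499.5 and 16324 in islets. Egr2 was lower (-2.14). Of 13 heat shock genes 4 were higher and 1, the mitochondrial chaperonin Hspd1, lower (-0.99). Hspd1 was not called with no filter on low values or with all 12 libraries in 1 fit. Hspa1a, the inducible HSP70, read 458, 502 and 1102 against 163, 182 and 136 (log2 difference 1.98, SE 0.37, adjusted p = 0.00332), with endothelial replicate 3 more than 2 times the others, and Hspb1 (1.82) and Bag3 (1.52) were also higher. Means in sorted macrophages, which went through the same procedure, were 45780.3 ± 4186 for Atf3 and 33431 ± 4816 for Fos. The immediate early list made up 0.573, 0.578 and 0.607% of the endothelial libraries and 0.494, 0.384 and 0.333% of the Dox islet libraries. Whole islets without Dox held 0.408, 0.626 and 0.219%, and their replicate 2 was thus above every endothelial library. The part of handling in these differences was not tested. Immediate early genes called higher numbered 5 without endothelial replicate 1 and islet replicate 3 (each) and 13 without islet replicate 1. With no filter on low values 4 immediate early genes were called higher. Hspd1 (largest adjusted p = 0.109) was not called in separate fits without endothelial replicates 1, 2 and 3 and islet replicates 2 and 3. Nr4a1 (largest adjusted p = 0.075) was not called in separate fits without endothelial replicate 1 and islet replicates 2 and 3.

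Cell cycle genes were present in both groups. Mki67, the proliferation marker, read 12076, 12488 and 13478 in endothelial cells and 4487, 16946 and 8045 in islets, which overlapped, and was not called (log2 difference 0.58, adjusted p = 0.316). Its mean was 1735 ± 1250.0 in islets without Dox. Of 23 genes, 22 had a difference above 0 and 5 were called higher, among them Birc5 (survivin; 1.39) and Mcm3 (1.21), a subunit of the replication helicase. Cell cycle genes called higher numbered 0 without endothelial replicates 1, 2 and 3 (each), 10 without islet replicate 1, 12 without islet replicate 2 and 2 without islet replicate 3. At an unadjusted limma p under 0.05, 3, 7 and 9 genes were higher in those fits with 0 calls. Mcm3 (largest adjusted p = 0.0917) was not called in separate fits without endothelial replicates 1, 2 and 3. Birc5 (largest adjusted p = 0.154) was not called in separate fits without endothelial replicates 1, 2 and 3 and islet replicates 2 and 3. Mki67 (adjusted p = 0.022) was called without islet replicate 2.

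Antigen presentation genes were counted by class, to be read beside the 11.5% of all genes tested called higher and the 21.6% called lower. In class I, 4 of 11 genes were called higher, among them the peptide transporters Tap2 (1.61) and Tap1 (1.20). B2m, the light chain, read 81942, 83846 and 72464 in endothelial cells and 40025, 106653 and 74564 in islets and was not called. In class II, 7 of 10 were lower: H2-Ab1 read 166, 139 and 133 against 5419.9, 3084 and 1815 (log2 difference -4.41, SE 0.37, adjusted p = 5.14e-05) and Cd74, the invariant chain, read 257, 244 and 119 against 10282, 4836 and 2761 (log2 difference -4.71, SE 0.48, adjusted p = 0.000139). The mean of Cd74 in macrophages was 147309 ± 15196. Cd40, a receptor of the TNF family on antigen-presenting cells, was the 1 gene called higher, at 842, 902 and 963 against 465, 445 and 388 (log2 difference 1.06, SE 0.20, adjusted p = 0.0033). Of 17 interferon-response genes 7 were higher and 1 lower, with Irf1 at 4534, 4069 and 4589 against 1977, 1309 and 1030.2 (log2 difference 1.66, SE 0.24, adjusted p = 0.000919), Gbp4 at 1.36 and Mx1 lower at -1.61. Class I genes called higher numbered 1 without endothelial replicates 1 and 2 and islet replicate 3 (each), 2 without endothelial replicate 3 and islet replicate 2 (each) and 7 without islet replicate 1. Interferon-response genes called higher numbered 4 without endothelial replicate 1 and islet replicate 3 (each) and 3 without endothelial replicate 2. Tap1 (largest adjusted p = 0.156) was not called in separate fits without endothelial replicates 1, 2 and 3 and islet replicates 2 and 3. Tap2 (largest adjusted p = 0.067) was not called in separate fits without endothelial replicates 1 and 2 and islet replicates 2 and 3. Mx1 (largest adjusted p = 0.0913) was not called in separate fits without endothelial replicates 1 and 2 and islet replicate 3. It was also not called with no filter on low values, after quantile normalization or with all 12 libraries in 1 fit.

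In glycolysis and the response to low oxygen, 7 of 20 genes were higher and 2 lower, against 11.5% and 21.6% of all genes tested. Pfkp, the platelet type phosphofructokinase, read 3307, 3831 and 3787 against 2039, 1767 and 1509.7 (log2 difference 1.05, SE 0.18, adjusted p = 0.00199), Hk1 was higher (1.38) and Bnip3, a mitophagy receptor induced by hypoxia, was lower (-2.11). None of 19 respiratory chain genes was called by limma, and 1 had an unadjusted p under 0.05. Atp5b, a subunit of ATP synthase, read 22231, 17502 and 13316 in endothelial cells and 23063, 17190.4 and 12855 in islets, a log2 difference of 0.01. With islet replicate 1 left out, 3 were called higher and 3 lower. Of 22 ribosomal and translation genes 1 was called, Rpl7a (1.45); with islet replicate 1 left out, 13 were called higher and 1 lower. Glycolysis and low-oxygen genes called higher numbered 3 without endothelial replicates 1 and 2 (each) and 4 without endothelial replicate 3 and islet replicate 3 (each). Glycolysis and low-oxygen genes called lower numbered 1 without endothelial replicates 1 and 2 and islet replicates 2 and 3 (each). Hk1 (largest adjusted p = 0.0652) and Rpl7a (largest adjusted p = 0.0895) were not called in separate fits without endothelial replicates 1, 2 and 3 and islet replicate 3. Rpl7a was also not called with all 12 libraries in 1 fit.

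**Figure D5:**
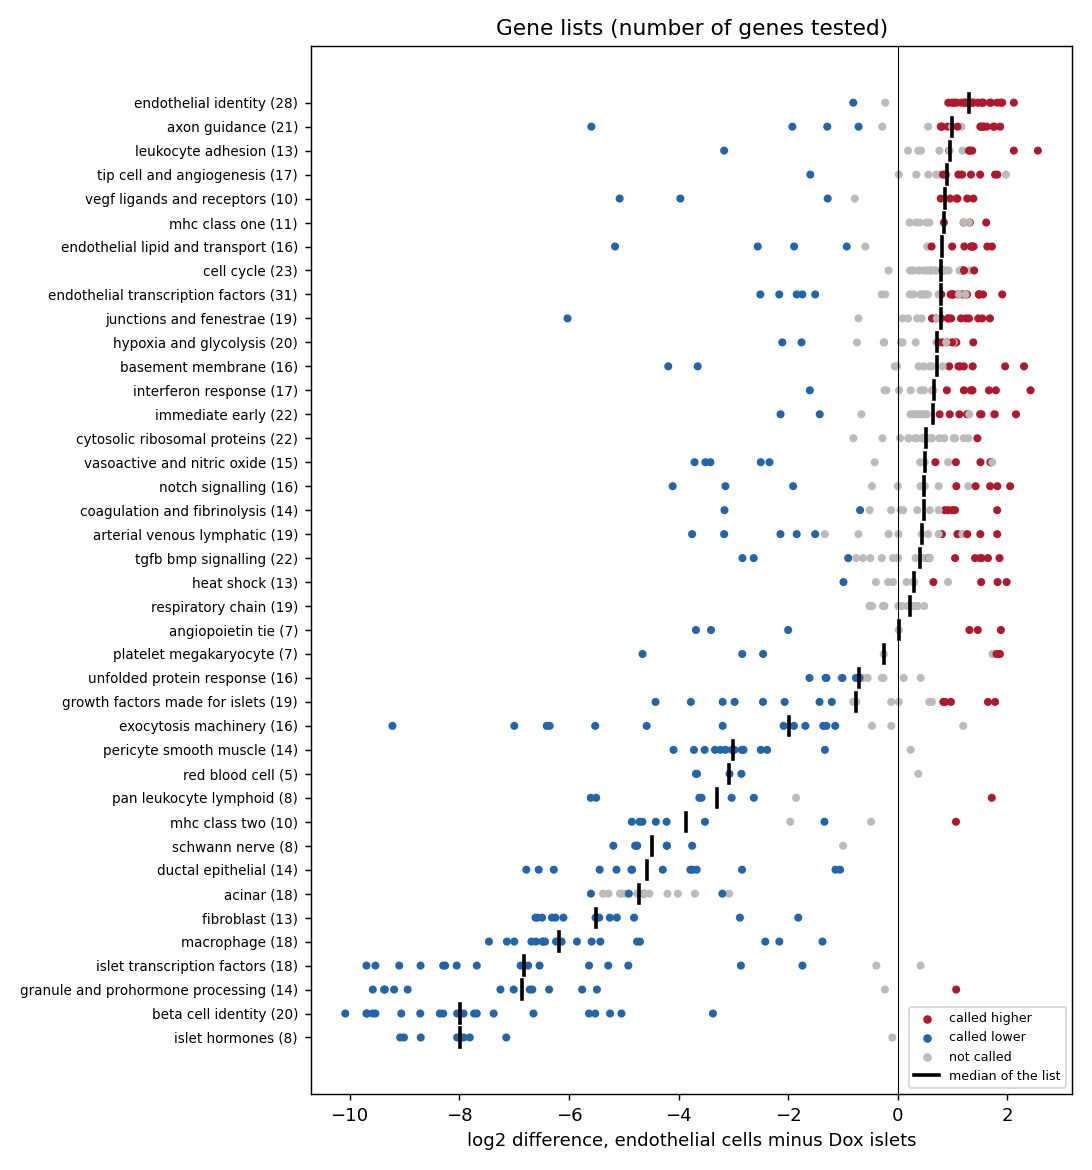
log2 difference (endothelial cells minus Dox islets) of every tested gene of 40 lists, sorted by the median of each list, which is a black bar; numbers in parentheses are genes tested. Red points were called higher, blue points lower and grey points not called. Endothelial identity has the highest median (1.30) and islet hormones and beta cell identity the lowest (both -7.98).

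Over all genes, list members included, the 15 largest differences in each direction were taken among called genes whose groups did not overlap and whose mean in the higher group was at least 716. On the low side these were led by Glp1r and Resp18 (-9.91), a protein of neuroendocrine granules. Others were Tmem27 (-9.60), a beta cell membrane protein, Ttr (-9.30), transthyretin, and Galr1 (-9.29), a galanin receptor. In each of the 15, the lowest islet value was at least 190 times the highest endothelial value.

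On the high side, the largest difference was that of Gm20532, which read 1784, 1717 and 2346 against 97.1, 34.9 and 8.74 (log2 difference 5.89, SE 0.72, adjusted p = 0.00035). Among the other 14 was H1foo, the oocyte linker histone, at 2057, 2323 and 2419 against 676, 106 and 66.9 (log2 difference 3.73, SE 0.73, adjusted p = 0.0044). Acr, the acrosomal protease of sperm, read 1667, 1665 and 1860.2 against 477, 97.1 and 231, and Crybb3, a lens crystallin, read 1007, 1052 and 1282 against 464, 77.7 and 190.5. Npr1, the receptor of atrial natriuretic peptide, read 1445, 1439 and 1436 against 585, 136 and 180.4 (log2 difference 2.56, SE 0.48, adjusted p = 0.00368).

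Of these 15 genes, 11 lie beside or over another gene called higher. Gm20532 (mm9, 2:26442159-26491154, plus strand) overlaps Egfl7, a secreted endothelial protein which read 7762, 5791 and 4855 against 4268, 1225 and 1222. H1foo (6:115894956-115900254) lies 4.58 kb from Plxnd1. Fut2 lies 9.50 kb from Rasip1, a RAS-interacting protein of endothelium, Acr 8.07 kb from Shank3, Slc16a11 7.71 kb from Bcl6b, Spnb5 3.40 kb from Ehd4 and Gm4793 overlaps Nav1. The 11 had such a gene, with an endothelial mean of at least 716, within 20 kb, against 20.6% of all genes called higher and 10.3% of all genes tested. The sources used here do not say whether the counting used strand, so reads of overlapping or neighbouring genes cannot be told apart from those of the gene itself. Egfl7 (largest adjusted p = 0.102) was not called in separate fits without endothelial replicates 1 and 2 and islet replicates 2 and 3.

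Islet replicate 1 was the highest islet library for all 15, and for 13 of them it was over 2 times each of the others. It was the highest islet library for 65.2% of all genes called higher and 22% of those called lower. These 15 had a median GC content of 56.7%, against 50.1% over all genes tested, 51.8% over those called higher and 46.9% over the 15 largest on the low side. A fit with the GC trend of each library removed called 5483 genes, 2229 of them higher. The part of GC content in the differences of these 15 genes was not tested.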

How the data were processed

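The authors deposited 1 table of normalized signal per gene, linear and with a floor of 1, for 12 libraries. The sources used here do not name its normalization method. Per the submitters' processing notes, tools and builds include TopHat2 2.0 and mm9. Per the labels' protocols RNA was amplified before library preparation. Values did not give back whole reads, so no count model was used and depth is known only as summed signal. Symbols turned into dates (25) were restored, and for 76 symbols with several entries the one with the highest mean was kept. Genes were kept with a signal of at least 15.5, the 40th percentile of all values, in 3 of the 6 libraries. Differences of log2(signal + 1) were tested with limma 3.58.1 (R 4.3.3, trend) with Benjamini-Hochberg adjustment over 14218 genes. The script was tested on simulated data. The main fit had no replicate block, since the labels do not say that replicate numbers mark shared animals. Deviations from the group mean correlated at 0.29, 0.00 and 0.07 between libraries of the same number. Between libraries of different numbers they correlated at -0.29 to 0.16. With 3 libraries per group these values cannot decide whether the libraries are paired. Named genes were the markers, the 15 largest differences each way and, per list, up to 4 called each way and 3 not called. Chosen after their values were seen were Cldn5, Col1a1, Efnb2, Egfl7, Ehd4, Fli1, Gpihbp1, Gucy1b3, Hspa1b, Ins1, Itgam, Lyz2, Nav1, Notch4, Nr2f2, Nrp1, Pdgfrb, Rasip1, Robo4, Shank3, Tjp1 and Vegfc. The members and lists were chosen with earlier results of these data known. Some genes that the naming rule selects are not reported here.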

Additional observations from a re-analysis of the deposited data

How the results depend on the processing

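The direction of the 167 named genes that were called held under every alternative in which they were tested. Under some it could not change: the filters, the replicate block, the fit of all 12 libraries and the minimum difference keep the group means. Of the 167, 59 were called under every alternative in which they were tested. With no filter on low values 80 list members were called higher instead of 146. A stricter filter left 3076 calls, 1675 of them lower, from fewer genes tested. Quantile normalization gave 3319 higher calls and a fit of all 12 libraries 995, and the cause was not tested. Requiring a log2 difference above 1 left 2039 calls, 83 higher and 1956 lower, with 4 list members higher. Without single libraries, calls ranged from 3307 to 8167, higher calls from 766 to 3663, lower calls from 2504 to 4504, list members higher from 92 to 206 and lower from 185 to 227. The replicate block gave 5193 calls, and whether the replicate numbers pair the libraries is not known. With the SL35 libraries alone (3 endothelial, 1 islet; chosen after seeing the data) 3712 genes were called, the single islet library being assumed to vary like the endothelial ones. Signs turned in genes that were not called: Atp5b -0.026 and Igf1 0.24 with the GC trend removed; Atp5b -0.41, Cnn1 -0.29, Erg 1.42, Ghrl 0.11, Igf1 0.60 and Nid1 0.74 with the SL35 libraries alone; Nid1 0.052 with median ratio rescaling; Atp5b -0.21, B2m -0.15 and Ghrl 0.51 with quantile normalization. Over the fits without 1 library these ranged for Angpt2 -0.14 to 0.11, Apln -0.11 to 0.77, Atp5b -0.20 to 0.22, B2m -0.17 to 0.54, Erg -1.05 to 0.27, Hhex -0.047 to 0.83, Igf1 -0.48 to 0.10 and Nid1 -0.39 to 0.26. Depth in reads is unknown, so values near the floor limit the size of the largest differences.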
